A study of Homo sapiens with 10 samples.

Results

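CD32 is a low-affinity Fc gamma receptor, which binds the constant region of IgG, and the comparison described here is between cells cross-linked through CD32 for 6 h and cells cross-linked through CD32 for 2 h. It asks how the transcriptional response to CD32 cross-linking developed between those times. The arrays were taken by title, 2 arrays of CD32 6 h and 2 arrays of CD32 2 h, which are 4 of the 10 arrays of the study. The cells were U937, a human monocytic line, and all 10 arrays, controls included, came from cells differentiated with interferon gamma. The remaining arrays were 2 of CD64 6 h, 2 of CD64 2 h and 2 of the control, where CD64 is the high-affinity IgG receptor and the control had no cross-linking and no time in its labels. The labels name neither the cross-linking antibody nor the dose of interferon gamma, and each cross-linked group has an array called a duplicate, with no word on whether it was a separate culture. The p-values therefore measure the spread between arrays only, which may be technical. The source name of the first CD32 2 h array reads CD332, whereas its title and description say CD32 and were used.

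Fc gamma receptors bind antibody-coated particles and immune complexes. Clustering of these receptors lets Src family kinases phosphorylate tyrosine motifs, the kinase SYK is recruited, and calcium, MAP kinase and NF-kappaB signalling follow. CD32 is encoded by several genes, of which FCGR2A encodes an activating form with its own signalling motif and FCGR2B an inhibitory form. In monocytes such signalling is known for immediate early transcription factors, chemokines and phagocytosis.

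Values are the deposited signal of each probe set on a 1-colour oligonucleotide array, and differences are log2 differences, CD32 6 h minus CD32 2 h, with the standard error from limma. Signals under a floor of 37.5 were set to it before log2 was taken, and a gene was said to have risen or fallen at an adjusted p under 0.05. In this fit 344 of 7708 probe sets passed, or 4.46%. There were 157 higher at 6 h, 2.04% of those tested, and 187 lower at 6 h, 2.43%. Among them 40 rose and 45 fell by more than 2-fold, and 1437 of the 7708 had an unadjusted p under 0.05. The median difference over all probe sets was −0.05. The count rested on each of the 4 arrays: it was 142 without the duplicate CD32 6 h array, 118 without the first CD32 6 h array, 77 without the duplicate CD32 2 h array and 61 without the first CD32 2 h array, where the lone array of a group was assumed to vary like the other groups. After median centring of each array, 34 were higher and 7 lower. Of the 125 called genes chosen to be named, 29 to 51 were still called with 1 of these arrays left out and none changed direction, and 15 were called in all 15 alternative settings: BCL2A1, CXCL8, EGR1, FASN, FOSB, HMGCS1, IDI1, IER3, MAFF, MSMO1, PLAUR, PPP1R15A, PURA, SLC2A3 and SQLE.

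In correlations over probe sets (not independent of each other), the CD32 6 h arrays stood at 0.9737, the CD32 2 h arrays at 0.9786, and arrays of different time at 0.964 to 0.9731. Other measures moved with time. The 18 probe sets for added bacterial transcripts and cre, which are not of the cells, read 1.64-fold to 2.66-fold higher on the CD32 6 h arrays, with a median of 2.26-fold. The ratio of 3' to 5' signal of actin was 2.01 and 1.97 on the CD32 6 h arrays, against 1.44 and 1.67 on the CD32 2 h arrays, and that of GAPDH was 1.19 and 1.15 against 0.814 and 0.943. The brightest 305 probe sets, with a mean signal over 4096, had a median difference of 0.16, and 38 of them rose while 4 fell. The 622 probe sets with a mean signal from 1024 to 2048 had a median of −0.10, and 29 rose while 56 fell. After quantile normalization, which gives every array the same distribution of values, the median of the brightest was −0.01. The part of labelling, hybridisation and RNA quality in the results was not tested.

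**Figure D1:**
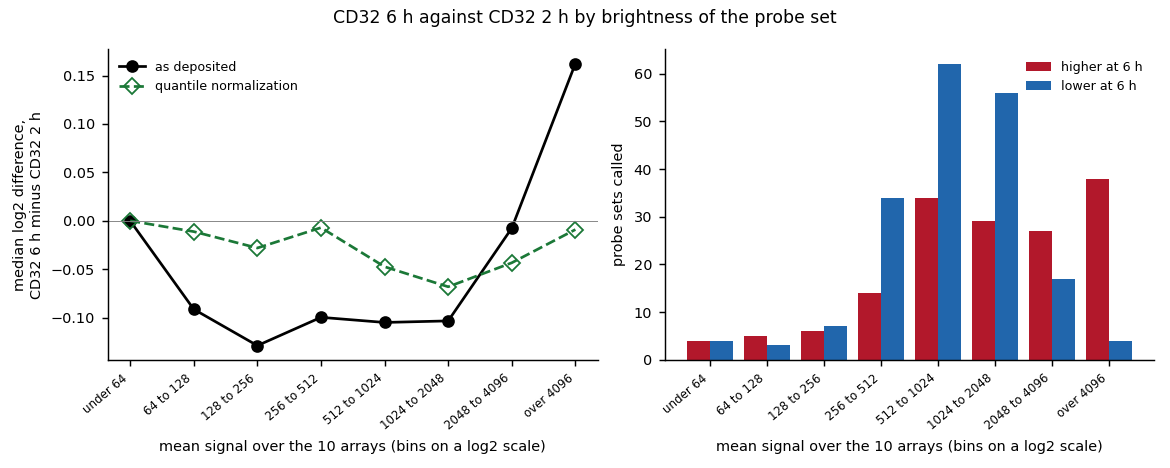
Median log2 difference, CD32 6 h minus CD32 2 h, of probe sets grouped by mean signal over the 10 arrays (left; black as deposited, green after quantile normalization), and the number of probe sets called higher (red) or lower (blue) at 6 h (right). The brightest group lies at 0.16 as deposited and at −0.01 after quantile normalization.

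The labelled cell type was checked on its markers. PTPRC, the leukocyte phosphatase CD45, read 2522 and 2404 on the CD32 6 h arrays, against 2554 and 2300 on the CD32 2 h arrays. Some other markers read higher at 6 h without overlap. The integrin chain ITGB2 read 7075 and 7593 at 6 h, against 6043 and 5364 at 2 h. The myeloid factor SPI1 read 580 and 589 against 313 and 350. CD4 read 2474 and 2396 against 1440 and 1178, and ITGAM 784 and 710 against 580 and 554. Over all probe sets tested, 48.4% had no overlap between these times. CD14, the monocyte co-receptor for lipopolysaccharide, read 54.4 and 18.4 at 6 h, against 14.5 and 3.6 at 2 h, and the granule enzyme MPO read 61.0 or less on each of the 4. Marker lists of T cells, B and plasma cells, natural killer cells, erythroid cells and platelets, and epithelial cells and fibroblasts had no member called between the times. Over all probe sets tested 4.46% were called. Some of these markers read above the floor on all 4 CD32 arrays. They were 4 of 12 for T cells, 2 of 9 for B and plasma cells and 2 of 12 for natural killer cells. For erythroid cells and platelets they were 6 of 10, and for epithelial cells and fibroblasts 4 of 15. The summed signal of the 9 B and plasma cell markers on the array was 588 and 466 at 6 h, against 197 and 379 at 2 h, higher without overlap, and the 5 of them tested had a median difference of 0.55. The part of these markers in the results was not tested. The sums of the other lists overlapped between the times: 627 and 616 at 6 h, against 411 and 796 at 2 h, for the 12 T cell markers, 2463 and 2472 against 2520 and 2349 for natural killer cells, 1371 and 1035 against 763 and 1294 for erythroid cells and platelets, and 734 and 748 against 572 and 763 for epithelial cells and fibroblasts.

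The genes of CD32 itself did not pass the test. FCGR2A read 737 and 663 on the CD32 6 h arrays, against 609 and 706 on the CD32 2 h arrays, and 652 and 682 on the control arrays. Its groups overlapped, with a difference of 0.09 ± 0.13 (SE, n = 2 each) and an adjusted p of 0.789 in the limma fit. FCGR2B read 900 and 772 at 6 h, against 664 and 651 at 2 h, and 411 and 438 in the control. Both 6 h values lay above both 2 h values, but 48.4% of all probe sets tested had no overlap between these times. The difference of 0.34 ± 0.12 for FCGR2B had an adjusted p of 0.158 in limma. FCER1G, the shared signalling chain of the activating receptors, differed by 0.24 ± 0.09 (adjusted p = 0.157), and FCGR3B by 0.65 ± 0.61 (adjusted p = 0.647). Of 40 tested genes of the kinases, adaptors and phosphatases below Fc receptors, 0 rose and 1 fell. Over all probe sets tested 2.04% rose and 2.43% fell, so 1 of 40 is near that share. The one that fell was CSK, a kinase that holds Src family kinases inactive, with 869 and 850 at 6 h, against 1218 and 1319 at 2 h (−0.56 ± 0.10, adjusted p = 0.0125). The median of these 40 was −0.13 as deposited and 0.02 after cyclic loess normalization.

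Some immediate early genes, which are switched on by signalling without new protein synthesis, were higher at 6 h than at 2 h. Of 47 genes in the list, 42 were on the array and tested, 9 rose and 1 fell, with a median difference of 0.48 beside −0.05 for all probe sets. FOSB, a partner of JUN in the factor AP-1, read 631 and 628 on the CD32 6 h arrays, against 93.8 and 77.2 on the CD32 2 h arrays, and 15 and 5.3 on the control arrays. The 6 h values lay 7.40-fold above the 2 h values (2.89 ± 0.35, adjusted p = 0.00165), and the control values lay under the floor. EGR1, a zinc finger factor induced by growth signals, read 1038 and 878 at 6 h, against 153 and 137 at 2 h, and 62.4 and 63.4 in the control. That difference was 2.72 ± 0.31 (6.61-fold, adjusted p = 0.00122), and the groups stood in the order control, 2 h, 6 h without overlap. RGS1, which speeds the switching off of G protein signals, had the highest difference of the called genes, 3.37 ± 0.50 (adjusted p = 0.00538). Its arrays read 496 and 975 at 6 h, against 62.8 and 72.1 at 2 h, and 116 and 67.4 in the control, so the 2 h values lay in or below the range of the control.

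The promoter of EGR1 is shown because it is known for serum response factor sites, named CArG boxes. It is given from 125 to 54 bases before the start in RefSeq (GRCh38.p14, chr5:138465354-138465425, plus strand), with CArG box matches in capitals.
EGR1: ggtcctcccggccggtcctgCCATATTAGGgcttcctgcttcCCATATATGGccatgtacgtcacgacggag
Each of the 2 matches reads as a CArG box on both strands. EGR1 was the only 1 of the 7 called genes of the list with a promoter in the table to hold one. The motif was not particular to this list, since 3 of 9 called interferon-stimulated genes also held it (CXCL11, GBP1 and ISG15). Among all 27305 promoters, searched over 250 bases before the start on both strands, 1.14% did. A match is a description of the letters, and the motif search was chosen after the values were seen.

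Other members of the list included EGR3, a relative of EGR1, with 371 and 417 at 6 h, against 126 and 114 at 2 h (1.72 ± 0.35, adjusted p = 0.0212). IER3, a regulator of survival, read 1520 and 1667 at 6 h, against 523 and 499 at 2 h, and 179 and 138 in the control (1.64 ± 0.16, adjusted p = 4.68e-04). MAFF, a small partner of basic leucine zipper factors, read 587 and 634 at 6 h, against 203 and 200 at 2 h, and 291 and 329 in the control. Its 2 h values lay below the control and its 6 h values above it (6 h minus 2 h, 1.60 ± 0.16, adjusted p = 5.91e-04). JUNB, IER2 and BHLHE40, named after their values were seen, rose by 1.54 ± 0.34, 0.92 ± 0.13 and 0.68 ± 0.10. The member that fell, ID2, an inhibitor of basic helix-loop-helix factors, differed by −0.72 ± 0.14 (adjusted p = 0.0179). FOS and ATF3 did not pass: FOS read 475 and 395 at 6 h, against 210 and 247 at 2 h (adjusted p = 0.0838), and ATF3 read 844 and 728 against 511 and 321 (adjusted p = 0.0783). Both were named after their values were seen. Among 14 tested MAP kinase phosphatases and feedback inhibitors 1 rose, SPRY2, which dampens receptor tyrosine kinase signalling, by 0.96 ± 0.21 (adjusted p = 0.0282). The phosphatase DUSP1, named after its values were seen, read 347 and 264 at 6 h, against 166 and 147 at 2 h, and did not pass (adjusted p = 0.0730).

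**Figure D2:**
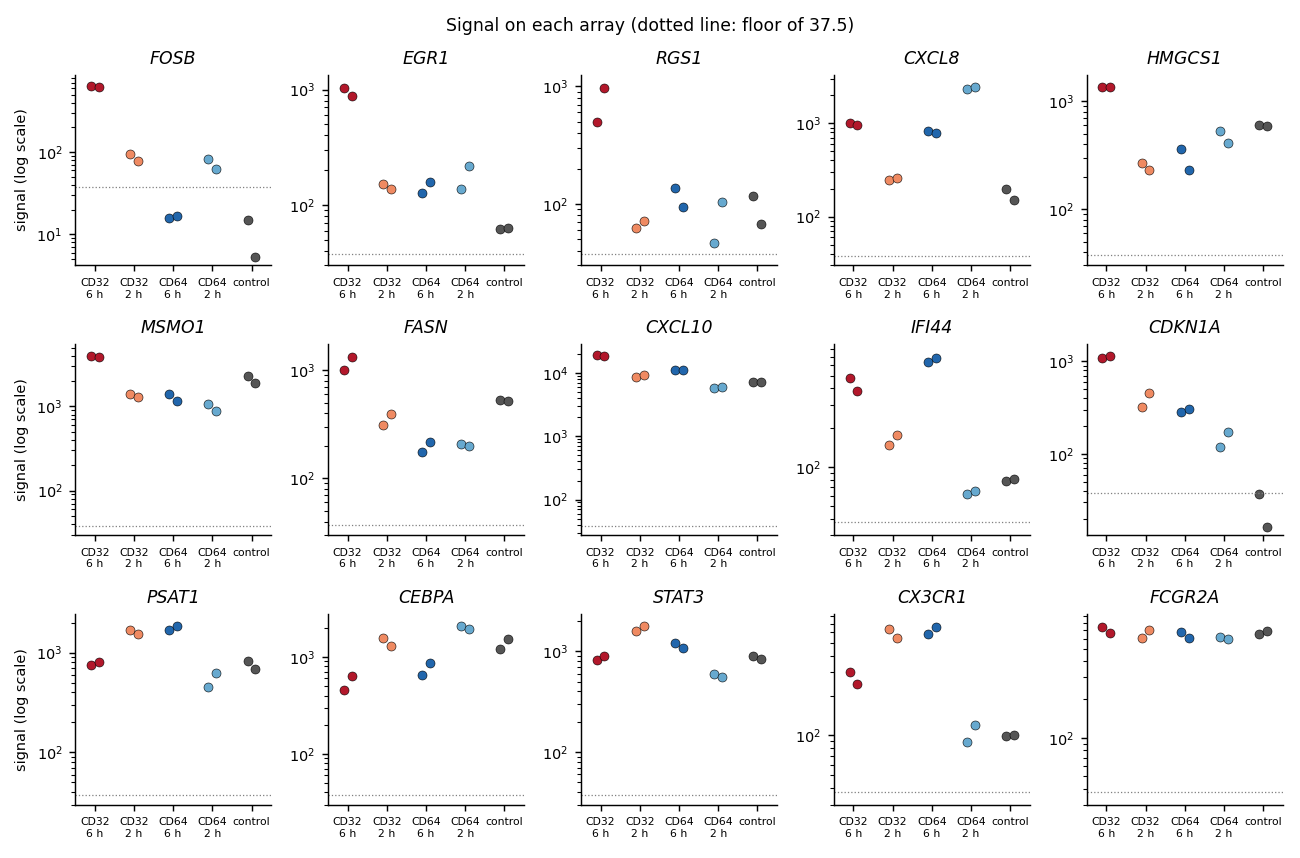
Signal of 15 genes on each of the 10 arrays, on a log axis, with 1 point per array and the dotted line at the floor of 37.5. FOSB, EGR1, RGS1, CXCL8, HMGCS1, MSMO1, FASN, CXCL10, IFI44 and CDKN1A stood higher in CD32 6 h than in CD32 2 h, PSAT1, CEBPA, STAT3 and CX3CR1 lower, and the groups of FCGR2A overlapped.

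Some genes of cholesterol and fatty acid synthesis were also higher at 6 h. These genes are known targets of the sterol-sensing SREBP factors. Of 35 in the list, 24 were on the array and tested, 9 rose and 0 fell, with a median difference of 0.48. HMGCS1, which makes the substrate of HMG-CoA reductase, read 1347 and 1350 on the CD32 6 h arrays, against 270 and 231 on the CD32 2 h arrays, and 602 and 592 on the control arrays. The difference between the times was 2.43 ± 0.21 (5.40-fold, adjusted p = 2.38e-04), and the control lay between them. MSMO1, a sterol demethylase, read 3956 and 3863 at 6 h, against 1402 and 1277 at 2 h, and 2311 and 1887 in the control (1.55 ± 0.14, adjusted p = 2.38e-04). FASN, the fatty acid synthase, read 1003 and 1332 at 6 h, against 311 and 398 at 2 h, and 532 and 516 in the control (1.72 ± 0.20, adjusted p = 0.00133). For each of these 3 genes the 2 h arrays were the lowest and the 6 h arrays the highest of the CD32 and control groups.

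The remaining 6 were named after their values were seen. IDI1, an isoprenoid isomerase, rose by 1.19 ± 0.13, with 6314 and 6738 at 6 h, against 2703 and 3033 at 2 h. SQLE, which carries out the first oxygenation of sterol synthesis, rose by 1.01 ± 0.08, with 6110 and 5967 against 2881 and 3120. FADS2, a fatty acid desaturase, rose by 1.07 ± 0.17, and INSIG1, the sterol-dependent anchor of the SREBP complex, by 0.89 ± 0.13. The sterol synthesis enzymes SC5D and LSS rose by 0.73 ± 0.15 and 0.52 ± 0.13. The adjusted p-values of these 6 lay between 2.19e-04 for SQLE and 0.0495 for LSS.

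Promoters of 3 of these genes are shown with matches to CCAAT, the site of NF-Y, a factor known to act beside SREBP, in capitals (RefSeq, GRCh38.p14, in the direction of the gene, searched on both strands so that ATTGG also counts). They lie at chr5:43313488-43313587 on the minus strand, chr4:165327464-165327659 on the plus strand and chr7:155297688-155297732 on the plus strand.
HMGCS1: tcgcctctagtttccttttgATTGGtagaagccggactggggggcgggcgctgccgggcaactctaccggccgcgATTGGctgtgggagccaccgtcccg
MSMO1: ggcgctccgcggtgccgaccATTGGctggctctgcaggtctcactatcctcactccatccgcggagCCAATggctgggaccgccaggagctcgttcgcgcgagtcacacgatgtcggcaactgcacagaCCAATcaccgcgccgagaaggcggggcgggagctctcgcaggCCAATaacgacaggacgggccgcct
INSIG1: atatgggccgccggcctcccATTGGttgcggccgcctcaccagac
HMGCS1 held 2 matches, MSMO1 4 and INSIG1 1. Of the 7 called genes of the list with a promoter in the table, 5 held the motif, which 33.0% of all 27305 promoters of the same length also held. The sterol regulatory element, searched as TCACCCCAC or TCACGCCAC on both strands, was in 0 of the 7 and in 0.480% of all promoters. No match says only that these letters are not in this window.

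Some interferon-stimulated genes rose between 2 h and 6 h of CD32 cross-linking, in cells that had all received interferon gamma. Of 70 in the list, 53 of the 54 on the array were tested, 9 rose and 0 fell, and the median was 0.42. After median centring of each array 1 was called higher and 0 lower. CXCL10, a chemokine for T cells that acts through CXCR3, read 19190 and 18470 on the CD32 6 h arrays, against 8758 and 9235 on the CD32 2 h arrays, and 7291 and 7356 on the control arrays. It rose by 1.07 ± 0.09 (2.09-fold, adjusted p = 2.00e-04), and by 0.73 after quantile normalization (adjusted p = 0.00144). CXCL11, a second ligand of CXCR3, read 680 and 557 at 6 h, against 217 and 218 at 2 h (1.5 ± 0.27, adjusted p = 0.0119). IFI44, a cytoplasmic protein induced by interferon, read 479 and 383 at 6 h, against 148 and 175 at 2 h, and 78.2 and 80.8 in the control (1.41 ± 0.27, adjusted p = 0.0172). GBP1, a guanylate-binding protein of cell-autonomous defence, read 641 and 890 at 6 h, against 365 and 236 at 2 h, and 835 and 593 in the control (1.36 ± 0.29, adjusted p = 0.0275), so its 6 h values were near those of the control. Of genes named after their values were seen, ISG15, a ubiquitin-like modifier, rose by 0.89 ± 0.19, the RNA sensor IFIH1 by 0.88 ± 0.20, OAS3, which makes oligoadenylates, by 0.73 ± 0.15, the membrane protein IFITM1 by 0.65 ± 0.09 and the DNA sensor IFI16 by 0.42 ± 0.09. IFIT3, at 682 and 838 at 6 h, against 520 and 421 at 2 h, did not pass (adjusted p = 0.101).

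Promoters of 4 of them are shown with the interferon-stimulated response element in capitals, searched as GAAANNGAA on both strands (RefSeq, GRCh38.p14, in the direction of the gene). They lie at chr1:1013364-1013424 and chr1:78649752-78649788 on the plus strand, and at chr4:76023690-76023738 and chr1:89065306-89065354 on the minus strand.
ISG15: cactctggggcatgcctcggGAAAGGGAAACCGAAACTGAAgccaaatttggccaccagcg
IFI44: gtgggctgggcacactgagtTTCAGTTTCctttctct
CXCL10: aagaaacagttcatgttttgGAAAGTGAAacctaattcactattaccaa
GBP1: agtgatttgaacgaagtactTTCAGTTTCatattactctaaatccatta
ISG15 held 3 matches that overlap, and the other genes 1 each. The motif was found in 7 of the 9 called genes of the list and in 7.06% of all 27305 promoters.

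Some cytokines and chemokines rose. Of 55 in the list, 49 were on the array, 39 were tested, 8 rose and 0 fell, with a median of 0.14; CXCL10 and CXCL11 are also members. CXCL8, the neutrophil chemokine interleukin-8, read 1013 and 952 on the CD32 6 h arrays, against 247 and 262 on the CD32 2 h arrays, and 198 and 151 on the control arrays. Its difference was 1.95 ± 0.15 (3.86-fold, adjusted p = 1.58e-04). The monocyte chemokine CCL2, named after its values were seen like the next 4, read 2040 and 1387 at 6 h, against 936 and 877 at 2 h, and 148 and 156 in the control (0.89 ± 0.15, adjusted p = 0.0109). Interleukin-1 beta, IL1B, read 750 and 790 at 6 h, against 424 and 416 at 2 h, and 532 and 687 in the control (0.87 ± 0.15, adjusted p = 0.0111). The matrix protein and cytokine SPP1 and the chemokines CCL5 and CXCL9 rose by 0.57 ± 0.10, 0.43 ± 0.10 and 0.41 ± 0.09, and CXCL9 lost its call after quantile normalization (adjusted p = 0.171). CXCL2, a relative of CXCL8, read 151 and 171 at 6 h, against 52.1 and 65.8 at 2 h, and did not pass (adjusted p = 0.0689). The chemokine CCL20 read 105 and 154 at 6 h, against 11.4 and 21.1 at 2 h, and the growth factor HBEGF 354 and 280 against 99.7 and 67.2. Neither passed (adjusted p = 0.0505 and 0.0598), and both were named after their values were seen. Of 14 tested chemokine receptors 0 rose and 1 fell. CX3CR1, the fractalkine receptor, read 302 and 242 at 6 h, against 642 and 545 at 2 h, and the control arrays had a mean of 99.05 (6 h minus 2 h, −1.13 ± 0.25, adjusted p = 0.0283). After quantile normalization its adjusted p was 0.0783.

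Of 24 tested NF-kappaB targets and feedback genes 4 rose and 0 fell, with a median of 0.23. IRF1, an interferon regulatory factor, read 728 and 797 on the CD32 6 h arrays, against 410 and 354 on the CD32 2 h arrays, and 826 and 815 on the control arrays (0.998 ± 0.158, adjusted p = 0.00707). TNFAIP3, the ubiquitin-editing inhibitor of NF-kappaB, read 2324 and 2114 at 6 h, against 1183 and 1249 at 2 h (0.87 ± 0.11, adjusted p = 0.00225). ICAM1, an adhesion ligand of integrins, read 2581 and 2736 at 6 h, against 1514 and 1486 at 2 h (0.83 ± 0.11, adjusted p = 0.00281). NFKBIA, the inhibitor that holds NF-kappaB in the cytoplasm and named after its values were seen, rose by 0.67 ± 0.14 (adjusted p = 0.0209).

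The promoters of the feedback inhibitors TNFAIP3 and NFKBIA are shown with NF-kappaB motif matches in capitals (RefSeq, GRCh38.p14, chr6:137867172-137867233 on the plus strand and chr14:35404801-35404850 on the minus strand, in the direction of the gene).
TNFAIP3: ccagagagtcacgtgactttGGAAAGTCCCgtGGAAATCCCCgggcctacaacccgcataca
NFKBIA: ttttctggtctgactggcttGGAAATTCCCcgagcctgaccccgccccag
Of the 4 called genes 3 held the motif on either strand, IRF1 beside these 2, and 5.05% of all 27305 promoters did.

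Of 24 tested genes of glucose uptake and glycolysis 4 rose and 1 fell. The glucose transporter SLC2A3 read 1509 and 1921 on the CD32 6 h arrays, against 671 and 652 on the CD32 2 h arrays, and 1482 and 1759 on the control arrays (1.36 ± 0.14, adjusted p = 5.91e-04). The 2 h values were the lowest of these groups and the 6 h values lay near the control. The pyruvate kinase PKM read 15580 and 13520 at 6 h, against 7598 and 7765 at 2 h, and 4512 and 5825 in the control (6 h minus 2 h, 0.92 ± 0.13, adjusted p = 0.00335). That difference was 0.62 after quantile normalization (adjusted p = 0.0122). The hexokinase HK3 read 134 and 210 at 6 h, against 22.6 and 30.5 at 2 h, both under the floor, so it was at least 4.48-fold higher (adjusted p = 0.0372). Its control arrays read 366 and 198. HK2, named after its values were seen, rose by 0.80 ± 0.16 and SLC2A5, a fructose transporter named likewise, fell by 0.59 ± 0.10. HK2 read 952 and 881 at 6 h, against 510 and 540 at 2 h, and 2489 and 2081 in the control. The 6 h values of HK2 thus stayed below the control. The median of the list was 0.28 as deposited and 0.06 after quantile normalization. Of 21 tested hypoxia-inducible genes 3 rose and 0 fell: the urokinase receptor PLAUR by 1.04 ± 0.09 (adjusted p = 2.19e-04), the stress gene NDRG1 by 0.58 ± 0.10 (adjusted p = 0.0106) and the transferrin receptor TFRC by 0.49 ± 0.09 (adjusted p = 0.0168, and 0.0864 after quantile normalization).

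Some single genes of survival, growth arrest and tissue remodelling were among the higher ones. Their lists had few calls, to be read beside the 2.04% of all probe sets tested that rose and the 2.43% that fell. BCL2A1, an inhibitor of apoptosis, read 2898 and 3161 on the CD32 6 h arrays, against 1421 and 1264 on the CD32 2 h arrays, and 2390 and 2669 on the control arrays (1.18 ± 0.11, adjusted p = 4.42e-04). MCL1, a second inhibitor of the BCL2 family, rose by 0.71 ± 0.17 (adjusted p = 0.0471, and 0.0588 after quantile normalization). Of 36 tested apoptosis regulators 2 rose and 2 fell. CASP6, an executioner caspase, differed by −1.44 ± 0.32 (adjusted p = 0.0316, and 0.0654 after quantile normalization), and DIABLO, a mitochondrial activator of caspases named after its values were seen, by −0.55 ± 0.12 (adjusted p of 0.0634 after quantile normalization). CDKN1A, the cyclin-dependent kinase inhibitor p21, read 1090 and 1132 at 6 h, against 323 and 461 at 2 h, and 37.0 and 16.5 in the control. It rose by 1.52 ± 0.27 (adjusted p = 0.0130), while DDB2, a DNA damage sensor of the same list of 20, fell by 1.43 on the log2 scale (SE 0.28, adjusted p = 0.0177), at 434 and 200 at 6 h, against 768 and 818 at 2 h. The collagenase MMP1 read 888 and 956 at 6 h, against 231 and 299 at 2 h, and 120 and 80.0 in the control (1.81 ± 0.28, adjusted p = 0.00597). With PLAUR it was 1 of 2 genes called of 32 tested in the list of matrix proteases and coagulation.

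Amino acid synthesis and transport genes that the factor ATF4 is known to drive fell in part. Of 25 tested 5 fell and 2 rose, with a median of −0.23. After median centring of each array 0 were called lower and 1 higher. PSAT1, a serine synthesis enzyme, read 751 and 805 on the CD32 6 h arrays, against 1666 and 1533 on the CD32 2 h arrays, and 831 and 690 on the control arrays (−1.04 ± 0.15, adjusted p = 0.00515). Its 2 h arrays stood above both other groups. SLC7A11, the cystine transporter, read 540 and 498 at 6 h, against 785 and 831 at 2 h, and 174 and 171 in the control (−0.64 ± 0.14, adjusted p = 0.0275, and 0.0648 after quantile normalization). PHGDH, the first enzyme of serine synthesis, TRIB3, a pseudokinase, and SLC1A4, a neutral amino acid transporter, fell by 0.61 ± 0.11, 0.52 ± 0.11 and 0.46 ± 0.10 and were named after their values were seen. At 6 h TRIB3 still read above the control, at 2314 and 2220 against 589 and 658. SLC1A4 did too, at 1156 and 1131 against 554 and 594. PHGDH lay below the control, at 1433 and 1371 against 2176 and 2062. PPP1R15A, the phosphatase subunit that restores translation by acting on the initiation factor eIF2, rose, with 2204 and 2185 at 6 h, against 647 and 781 at 2 h, and 675 and 613 in the control (1.63 ± 0.12, adjusted p = 1.58e-04). The glutamine transporter SLC38A2, named after its values were seen, rose by 0.57 ± 0.10.

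Translation factors and tRNA synthetases were mostly lower where they were called, with 7 of 43 tested lower and 1 higher and a median of −0.20. After median centring of each array 0 of the 43 were called. EIF4G1, the scaffold of cap-dependent initiation, read 115 and 89.1 on the CD32 6 h arrays, against 259 and 236 on the CD32 2 h arrays (−1.29 ± 0.28, adjusted p = 0.0283). EIF2S3, a subunit of eIF2, read 632 and 687 at 6 h, against 1043 and 1228 at 2 h (−0.78 ± 0.11, adjusted p = 0.00364). CARS1, the cysteine tRNA synthetase, read 2002 and 2031 at 6 h, against 3041 and 3795 at 2 h (−0.75 ± 0.11, adjusted p = 0.00364). AARS1 and YARS1, for alanine and tyrosine, and the initiation factor subunits EIF2B2 and EIF2S2, named after their values were seen, fell by 0.56 to 0.68 on the log2 scale. The member that rose, the elongation factor EEF1A1, named likewise, read 28680 and 29440 at 6 h, against 20330 and 19810 at 2 h. Its difference was 0.53 ± 0.12 as deposited and 0.07 after quantile normalization (adjusted p = 0.783).

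DNA replication genes had 5 of 45 tested lower and 0 higher, and a median of −0.27. After median centring of each array 0 of the 45 were called. PRIM1, the primase, read 591 and 625 on the CD32 6 h arrays, against 1067 and 1148 on the CD32 2 h arrays, and 1244 and 1458 on the control arrays (−0.86 ± 0.11, adjusted p = 0.00265). RPA2, which binds single-stranded DNA, and RFC4, a clamp loader subunit, fell by 0.83 ± 0.20 and 0.63 ± 0.12. The helicase subunits MCM6 and MCM2, named after their values were seen, fell by 0.50 ± 0.08 and 0.47 ± 0.10. Of 45 tested mitotic genes 3 fell and 2 rose, beside 2.43% of all probe sets tested that fell and 2.04% that rose. The F-box cyclin CCNF differed by −0.99 ± 0.22, the phosphatase CDKN3 by −0.54 ± 0.11 and the cyclin CCNB2 by −0.35 ± 0.09. CKS2, a kinase subunit, rose by 0.48 ± 0.10 and the topoisomerase TOP2A by 0.42 ± 0.10. TOP2A read 1710 and 1679 at 6 h, against 1385 and 1150 at 2 h, and 2731 and 2963 in the control. MYC read 346 and 329 at 6 h, against 411 and 516 at 2 h, and 1788 and 2059 in the control, and its difference of −0.45 ± 0.14 between the times had an adjusted p of 0.111.

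Myeloid transcription factors had 4 of 36 tested lower and 0 higher, and 0 of the 36 were called after median centring of each array. CEBPA, which drives granulocyte and monocyte commitment, read 451 and 637 on the CD32 6 h arrays, against 1588 and 1310 on the CD32 2 h arrays, and 1217 and 1536 on the control arrays. The 6 h values were 2.69-fold lower than the 2 h values (−1.43 ± 0.19, adjusted p = 0.00299), and the 2 h values overlapped with the control. STAT3, a factor activated by interleukin-6 family cytokines, read 819 and 911 at 6 h, against 1582 and 1782 at 2 h, and 908 and 839 in the control (−0.96 ± 0.11, adjusted p = 0.00141). SOX4 read 232 and 300 at 6 h, against 510 and 381 at 2 h, and 1799 and 1516 in the control (−0.74 ± 0.18, adjusted p = 0.0471, and 0.0924 after quantile normalization). ELF4, an ETS factor named after its values were seen, fell by 0.60 ± 0.13.

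Ribosomal proteins and MHC class I genes are among the brightest on the array. Of 47 tested ribosomal proteins 8 rose and 0 fell with a median of 0.33, and after quantile normalization 0 were called and the median was 0.00; at unadjusted p under 0.05 in the values as deposited, 28 were higher and 0 lower. RPL30, a protein of the large subunit, read 32970 and 27940 on the CD32 6 h arrays, against 19700 and 22140 on the CD32 2 h arrays. Its adjusted p was 0.0428 as deposited and 0.838 after quantile normalization. RPS15A and RPS24, of the small subunit, differed by 0.50 ± 0.10 and 0.52 ± 0.12 as deposited, and their adjusted p after quantile normalization was 0.301 and 0.492. Of 15 tested MHC class I and peptide loading genes 3 rose: B2M, the light chain of class I, at 24070 and 23640 at 6 h, against 14500 and 15360 at 2 h, and the heavy chains HLA-B and HLA-C by 0.57 ± 0.13 and 0.53 ± 0.13. None of these 3 was called after quantile normalization (limma adjusted p = 0.182, 0.286 and 0.380). The added bacterial probe sets, at 2.26-fold in the median, moved the same way on these arrays, and their part in these results was not tested. CD74, the invariant chain of MHC class II, was 1 of 14 tested class II genes to rise, by 0.67 ± 0.12, and by 0.63 after quantile normalization (adjusted p = 0.0130). Of 57 tested splicing factors 4 rose, HNRNPH1 by 0.73 ± 0.12, SNRPG by 0.53 ± 0.09 and, named after their values were seen, HNRNPA2B1 by 0.51 ± 0.09 and SF1 by 0.41 ± 0.10, and RBM5 fell by 0.69 ± 0.14. HNRNPA2B1 and RBM5 lost their calls after quantile normalization (adjusted p = 0.0940 and 0.0528).

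**Figure D3:**
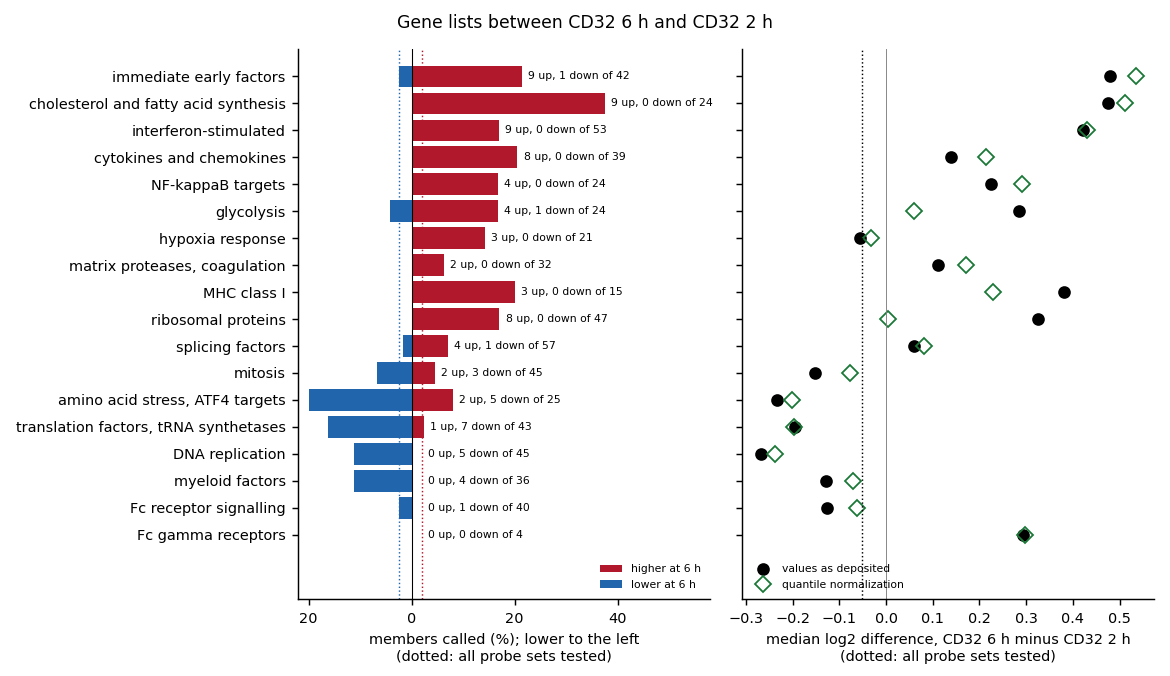
Members called higher (red, right of 0) or lower (blue, left of 0) at CD32 6 h against CD32 2 h in 18 gene lists, as a percent of the members tested (left), and the median log2 difference of each list as deposited (black) and after quantile normalization (green) (right). Dotted lines give all 7708 probe sets; ribosomal proteins move from 0.33 as deposited to 0.00 after quantile normalization, and immediate early factors and cholesterol synthesis stay above 0.4.

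Other lists had few calls, to be read beside the 2.04% of all probe sets that rose and the 2.43% that fell. In the unfolded protein response list XBP1, a transcription factor, differed by −0.69 ± 0.14, and in the heat shock list the chaperone HSP90AA1 by −0.68 ± 0.09. HSP90AA1 read 1787 and 1972 on the CD32 6 h arrays, against 2934 and 3070 on the CD32 2 h arrays, and 6579 and 6956 on the control arrays. The lysosomal protease CTSD rose by 0.90 ± 0.15 and the macrophage glycoprotein GPNMB by 0.49 ± 0.09. Of 13 tested primary granule genes the protease-like AZU1 rose by 0.60 ± 0.15 and the membrane protein MS4A3 differed by −0.55 ± 0.14 (adjusted p = 0.0497 and 0.0494, and 0.0799 for MS4A3 after quantile normalization). Of 25 tested ribosome biogenesis genes PWP1 fell by 0.85 ± 0.19, of 26 of the mitochondrial ribosome and import the translocase subunit TIMM17A rose by 0.50 ± 0.12, and of 23 oxidative stress genes TXN, thioredoxin, rose by 0.37 ± 0.09 (adjusted p of TXN 0.0405, and 0.0795 after quantile normalization). Of 30 tested proteasome genes 1 was higher, PSMC4, and 2 were lower, PSMD9 and PSMD10. Oxidative phosphorylation had 2 of 57 higher, ATP5F1E and ATP5MC3, which lost their calls after quantile normalization (adjusted p = 0.105 and 0.212). Lists of NADPH oxidase, G1 cyclins, the MYC network, Toll-like receptors, metallothioneins, histones, and lipid efflux and scavenger receptors had no member called at the limma adjusted p over all probe sets, with between 0 and 4 members higher and between 0 and 3 lower at unadjusted p under 0.05 in each.

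Beyond the lists, MEF2D, a myocyte enhancer factor, was among the highest, at 306 and 303 on the CD32 6 h arrays, against 38.7 and 79.9 on the CD32 2 h arrays (2.45 ± 0.52, adjusted p = 0.0244). FKBP8, a mitochondrial immunophilin, read 268 and 258 at 6 h, against 73.9 and 71.7 at 2 h (1.85 ± 0.30, adjusted p = 0.00775). STX1A, a syntaxin of vesicle fusion, read 149 and 147 at 6 h, against 37.2, under the floor, and 54.0 at 2 h (1.72 ± 0.39, adjusted p = 0.0319). Most of the lowest were dim. The nuclear pore protein TPR read 138 and 124 at 6 h, against 432 and 354 at 2 h (−1.58 ± 0.29, adjusted p = 0.0140). PURA, a nucleic acid binding protein, read 252 and 310 at 6 h, against 734 and 684 at 2 h (−1.34 ± 0.15, adjusted p = 0.00118). IL17RA, the interleukin-17 receptor, fell by 1.31 on the log2 scale (adjusted p = 0.0133), at 270 and 199 at 6 h, against 451 and 737 at 2 h. SPIN1, KMT5A, CHD2 and STS fell by 1.5, 1.48, 1.44 and 1.36 on the log2 scale, and STS lost its call after quantile normalization (adjusted p = 0.0713). The 6 h means of PKNOX1, TNNI3 and FAM200C lay at or under the floor, so these genes were at least 3.24-fold, 3.08-fold and 2.56-fold lower.

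The change between 6 h and 2 h was set against that of CD64, the other receptor with arrays at both times, which shares no array with it. After CD64 cross-linking 1065 of 7708 probe sets were called between 6 h and 2 h, or 13.8%, with 583 higher (7.56%) and 482 lower (6.25%). That count was 280 after median centring, 92 higher and 188 lower. It was 635 and 605 without the first or the duplicate CD64 2 h array, and 536 and 469 without the first or the duplicate CD64 6 h array. Of the 157 probe sets that rose after CD32, 34 rose and 48 fell after CD64; of the 187 that fell after CD32, 34 rose and 19 fell after CD64. The difference between the receptors in this change, CD32 minus CD64, was called for 884 probe sets, 11.5%, of which 366 had the higher change after CD32 (4.75%) and 518 the lower (6.72%). That count was 162 after median centring, 100 higher and 62 lower. It was 576 after quantile normalization, 552 and 539 without the first or the duplicate CD32 2 h array, and 542 and 493 without the first or the duplicate CD64 6 h array. On the CD64 arrays the brightest probe sets moved the other way, with a median difference of −0.44, and the added bacterial probe sets had a mean log2 signal of 9.35 and 9.29 on the CD64 6 h arrays, against 10.87 on each CD64 2 h array; on the CD32 6 h arrays it was 12.42 and 12.30, against 11.31 and 11.19 on the CD32 2 h arrays. Their part in the difference between the receptors was not tested.

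Some immediate early genes and sterol genes were among those with the higher change after CD32. FOSB changed by 2.89 after CD32 and by −0.94 after CD64, where it read 15.9 and 16.8 at 6 h, against 82.0 and 63.0 at 2 h. The difference was 3.83 ± 0.50 (adjusted p = 9.00e-04), and 4.15 after quantile normalization. EGR1 changed by 2.72 after CD32 and by −0.29 after CD64 (difference 3.01 ± 0.44, adjusted p = 0.00182). Of the 42 immediate early genes tested, 12 had the higher change after CD32 and 1 the lower. HMGCS1 changed by 2.43 after CD32 and by −0.70 after CD64, where it read 359 and 233 at 6 h, against 536 and 412 at 2 h (difference 3.14 ± 0.30, adjusted p = 1.66e-04). Of the 24 sterol and fatty acid genes 10 had the higher change after CD32 and 2 the lower. CXCL8 rose by 1.95 after CD32 and fell by 1.57 after CD64, at 833 and 786 at 6 h, against 2347 and 2456 at 2 h. That difference of 3.52 ± 0.21 (adjusted p = 1.18e-05) was 3.64 after quantile normalization. At 6 h the CXCL8 values of the receptors lay closer together than at 2 h.

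Many interferon-stimulated genes had the lower change after CD32. After CD64, 38 of the 53 tested rose between 2 h and 6 h, with a median of 1.22 beside 0.42 after CD32, and the difference was called lower for 23 and higher for 0. IFIT3, an interferon-induced RNA-binding protein, changed by 0.69 after CD32 and by 4.05 after CD64, where it read 2645 and 3918 at 6 h, against 172 and 218 at 2 h (difference −3.36 ± 0.30, adjusted p = 1.44e-04). ISG15 changed by 0.89 after CD32 and by 3.54 after CD64 (difference −2.65 ± 0.27, adjusted p = 2.43e-04). XAF1 and IFIT5 differed by −3.26 and −3.66. CXCL10 changed by 1.07 after CD32 and by 0.94 after CD64; the difference of 0.13 had an adjusted p of 0.598 as deposited, and it was −0.88 with an adjusted p of 0.00190 after quantile normalization. GBP1 differed by 0.57 (adjusted p = 0.469).

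Other genes moved in opposite directions after the receptors. CX3CR1 fell by 1.13 after CD32 and rose by 2.57 after CD64, with 582 and 656 at 6 h, against 89.4 and 121 at 2 h after CD64 (difference −3.70 ± 0.35, adjusted p = 1.62e-04). PSAT1 fell by 1.04 after CD32 and rose by 1.73 after CD64, and STAT3 fell by 0.96 after CD32 and rose by 0.98 after CD64 (differences −2.77 and −1.94). The cell surface receptors TREM1 and FFAR2, not called after CD32, differed by −3.40 and −3.33. CEBPA fell after both, by 1.43 after CD32 and by 1.42 after CD64 (difference −0.01 ± 0.27, adjusted p = 0.994).

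**Figure D4:**
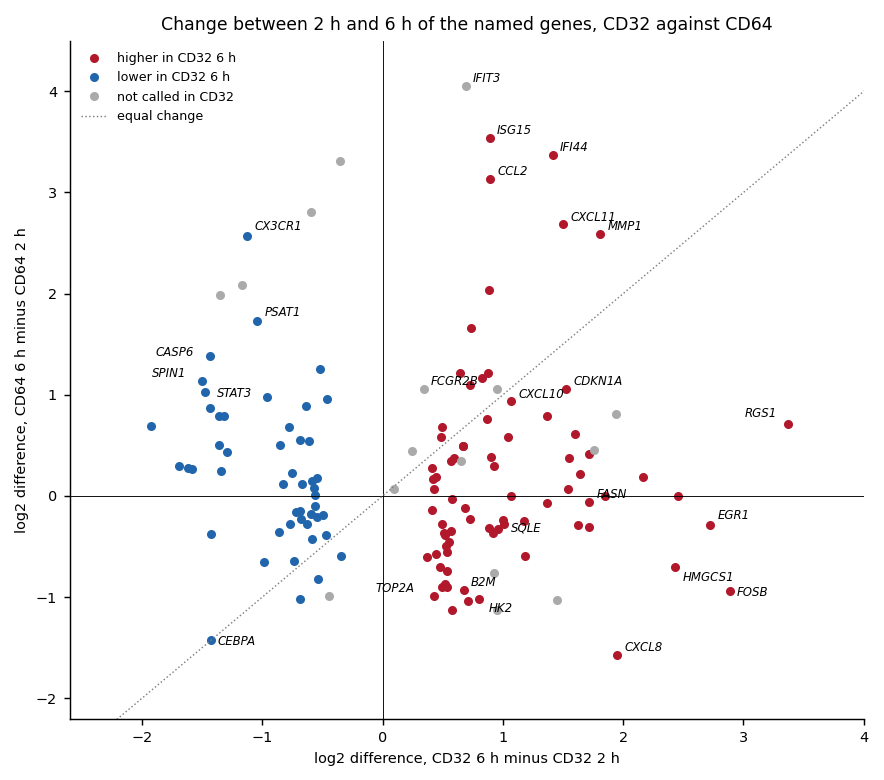
Log2 difference of the named genes between CD32 6 h and CD32 2 h (x axis) and between CD64 6 h and CD64 2 h (y axis), in red where higher and in blue where lower at CD32 6 h, and in grey where not called. Points on the dotted line changed equally; CXCL8, HMGCS1 and FOSB lie below it, CX3CR1, PSAT1 and IFIT3 above it, and CEBPA close to it.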

How the data were processed

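Gene expression was measured on 10 arrays of U937 cells in 5 groups of 2. The deposited values are linear signal intensity per probe set, scaled by the authors: the mean without the lowest and highest 2% was 500.5 to 500.6 on every array. Not given in the sources used here is the software. Of 8793 probe sets, 47 were control probe sets, and of the other 8746, 7840 had 1 gene symbol, 388 several and 518 none in the platform annotation, which can be old. The number of arrays limits the precision.

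Values were used as deposited. Signals under 37.5, the percentile 25, were set to it and log2 was taken. The 7708 probe sets above it on at least 2 arrays were tested with limma 3.58.1 in R 4.3.3 (lmFit with 1 term per group over all 10 arrays, eBayes with trend, 5 residual and 5.65 prior degrees of freedom), two-sided, with Benjamini-Hochberg adjustment over all 7708. On simulated data for CD32 6 h against CD32 2 h with 7708 probe sets, 39 of 100 probe sets changed by 1 on the log2 scale were recovered, 88 of 100 changed by 2, and 8 calls were false. The simulation drew independent noise for each probe set, without the floor, the filter or any shift of a whole array. It therefore cannot give the number of false calls in the deposited values. Where several probe sets had 1 symbol, the brightest stood for the gene.

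The comparison, the 45 lists (1520 genes, 1156 on the array) and the rule for named genes were chosen with earlier results of these data known. The rule took, among called probe sets with 1 symbol and no overlap between the groups, the 15 highest and 15 lowest, up to 3 called members per list, all Fc gamma receptor genes, and the 6 highest and 6 lowest of the difference from CD64, 95 genes in all, of which 1 is not reported here. Another 46 genes were added after their values were seen. RefSeq promoters (GRCh38.p14) were searched for motifs over 250 bases before the start. Alternatives covered normalization, the floor, the filter, the arrays fitted, the variance trend, a minimum fold and each array left out.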

Additional observations from a re-analysis of the deposited data

Results flagged for a closer look

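Of the genes named, 30 were called in opposite directions between 6 h and 2 h after CD32 and after CD64 cross-linking, and the difference between the receptors, CD32 change minus CD64 change, was itself called in limma for each. These values are log2 differences.

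Higher after CD32 and lower after CD64 were CXCL8, with a difference of 3.52, and HMGCS1 at 3.14. HK2 differed by 1.82, IDI1 by 1.785, MCL1 by 1.75 and NDRG1 by 1.705. TOP2A differed by 1.41 and CKS2 by 1.18. The bright genes in this direction were B2M at 1.61, RPL30 at 1.44, RPS15A at 1.39, RPS24 at 1.39, EEF1A1 at 1.28, SNRPG at 1.09, HLA-C at 1.02, ATP5MC3 at 1.01, ATP5F1E at 1.01, TXN at 0.98 and HNRNPA2B1 at 0.88. After quantile normalization B2M, HLA-C, ATP5F1E and ATP5MC3 had a limma adjusted p of 0.0626, 0.994, 0.0585 and 0.101 for the difference, RPL30 and RPS24 of 0.508 and 0.208, and EEF1A1 and HNRNPA2B1 of 0.971 and 0.194. The other 22 kept an adjusted p under 0.05 for the difference there. Among these, RPS15A, TXN, CX3CR1, CASP6, SLC7A11 and MCL1 lost the CD32 call there (limma adjusted p = 0.301, 0.0795, 0.0783, 0.0654, 0.0648 and 0.0588). After median centring the difference lost its call for PHGDH, AARS1, SLC1A4, SLC7A11, EIF2S3 and SNRPG among the 22 (limma adjusted p = 0.187, 0.143, 0.0809, 0.0749, 0.0726 and 0.0558). The CD32 call itself was kept after median centring only by CXCL8, HMGCS1 and IDI1 among the 22 (limma adjusted p = 7.41e-04, 7.41e-04 and 0.0272). For the rest of the 22 the CD32 change was not called there, with limma adjusted p from 0.0603 for HK2 and STAT3 to 0.554 for SLC1A4. The added bacterial probe sets moved in opposite directions on the arrays of these receptors too, higher at CD32 6 h and lower at CD64 6 h than at 2 h, and their part was not tested.

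Lower after CD32 and higher after CD64 were CX3CR1, with a difference of −3.70, CASP6 at −2.82, PSAT1 at −2.77 and SPIN1 at −2.64. STAT3 differed by −1.94, TRIB3 by −1.77, SLC7A11 by −1.53 and EIF2S3 by −1.46. SLC1A4 differed by −1.42, AARS1 by −1.23 and PHGDH by −1.16.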

How the results depend on the processing

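No result among the 125 genes chosen to be named and called between CD32 6 h and CD32 2 h changed direction in any of the 15 settings tried. Of the 125, 103 were called after quantile normalization, 100 after cyclic loess normalization, 74 with no filter, 27 without a variance trend, 25 after median centring, and 29 to 51 with 1 of the CD32 arrays left out. The count of 344 probe sets became 41 after median centring of each array (34 higher and 7 lower, so 82.9% higher against 45.6%), 54 without a variance trend and 85 with a minimum of 2-fold; the cause of the first pair was not tested. Leaving out 1 CD32 array gave 61 to 142, where fewer arrays were fitted, and the other settings gave 264 to 438. The count of 884 for the difference from CD64 became 576 after quantile normalization, 417 without a trend and 162 after median centring, and lay between 493 and 666 with 1 array left out. The CD64 count of 1065 became 780 after quantile normalization, 579 without a trend and 280 after median centring, and lay between 469 and 1017 with 1 array left out. Median centring of the difference, and every setting for the CD64 count, were chosen after seeing the data. FCGR2A, not called, differed by −0.0145 without the first CD32 2 h array and by up to 0.199 without 1 of the others. No paired analysis was possible because the labels number only the control arrays. Signals near the floor of 37.5 limit what can be said of dim genes. After median centring the immediate early and the sterol and fatty acid lists had 6 members called higher each, rather than 9. The cytokine and chemokine list had 2 rather than 8, and the NF-kappaB and glycolysis lists had 1 each rather than 4.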
